A study of Mus musculus with 21 samples.

Results

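Regulatory T cells (Tregs) from the lymph nodes that drain the infarcted heart were set against Tregs from lymph nodes that do not, in all genes counted. The members were 6 of the 21 libraries of the study. They were 3 of mediastinal lymph node (MLN) Tregs and 3 of non-draining lymph node (NDLN) Tregs, chosen by their labels and not by any measured value. All 6, like the other libraries, came from 8-week-old Foxp3-GFP mice, whose GFP reporter marks cells expressing Foxp3, 7 days past myocardial infarction (MI). The other libraries held Tregs of heart and spleen, and conventional T cells, labelled Tconvs, of these organs and the NDLN, with 3 libraries in each of the 7 groups. Every group carried the same reporter and the same MI, so neither node was that of an uninjured mouse. The sources used here do not give which nodes were pooled as non-draining, nor whether replicates were separate mice or pools, so the p-values measure the spread between libraries, which may in part be technical. No mediastinal Tconv library was analysed here, so a difference between nodes cannot be told apart from one that all T cells of the node would show.

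Lymph nodes receive antigen and migrating dendritic cells through afferent lymph, and the mediastinal nodes collect lymph from the heart and other thoracic organs. Tregs are CD4+ T cells defined by the transcription factor Foxp3. They restrain other lymphocytes, depend on interleukin-2 made by those cells, and are kept in the node by chemokine receptors and adhesion molecules until activation alters their programme. T cell receptor (TCR) ligation induces immediate early transcription factors within a short time and then the NF-kB pathway, which in turn induces its own inhibitors.

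The libraries of the nodes differed in composition before any single gene was considered. Total counts were 17108984 to 20324711 in MLN Tregs and 19790054 to 28048570 in NDLN Tregs. Mitochondrial rRNA took 0.0649, 0.0920 and 2.09% of counts in MLN replicates 1, 2 and 3, against 5.97, 5.62 and 5.56% in NDLN replicates 1, 2 and 3, and values below are in the same order of replicates. Ribosomal protein genes took 4.93, 9.82 and 12.7% of counts in MLN Tregs, against 17.9, 17.2 and 16.8% in NDLN Tregs. MLN replicates 1 and 2 were thus the lowest of the 6 in both shares, and MLN replicate 3 lay between them and the NDLN libraries. Of the 21 libraries, 5 had a mitochondrial rRNA share below 0.5% and 16 above it. MLN replicates 1 and 2 belong to the 5, and the fit was repeated with this library set as a term and with MLN replicate 3 alone. Replicates of 1 node were not alike in detail, with a Pearson r of log2 CPM (counts per 1000000 counts, with library sizes scaled by TMM factors) across genes from 0.793 to 0.866 between libraries of the same node, and the common biological coefficient of variation was 1.48.

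**Figure D1:**
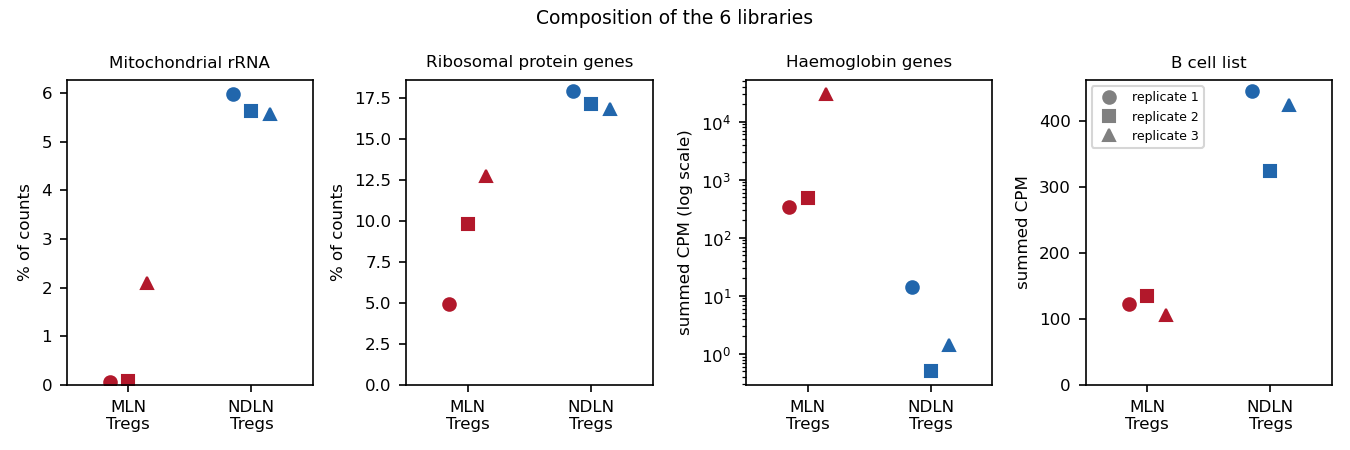
Each panel plots the 6 libraries singly, MLN Tregs on the left and NDLN Tregs on the right: mitochondrial rRNA and ribosomal protein genes as % of counts, and haemoglobin genes (log axis) and the B cell list as summed CPM. MLN replicate 3 has 2.09% mitochondrial rRNA, between the other MLN libraries at 0.0649% and 0.0920% and the NDLN libraries at 5.56% to 5.97%, and it has the highest haemoglobin sum.

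The lengths of genes also went with the library. Among genes with a mean of at least 20 CPM, those in the shortest quartile of exonic length, 67 to 2352 bases, had a median log2 ratio to the NDLN mean of -0.92 in MLN replicate 1, -0.14 in replicate 2 and -0.28 in replicate 3. The NDLN libraries had -0.03, 0.02 and -0.05 in that quartile. In the longest quartile, 6786 to 116825 bases, the MLN medians were 0.28, -0.42 and 0.12, against -0.32, 0.02 and 0.13 in NDLN Tregs. Short genes were therefore lowest in MLN replicate 1, and mitochondrially encoded and ribosomal protein genes are mostly short. The part of gene length in the differences below was not tested.

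**Figure D2:**
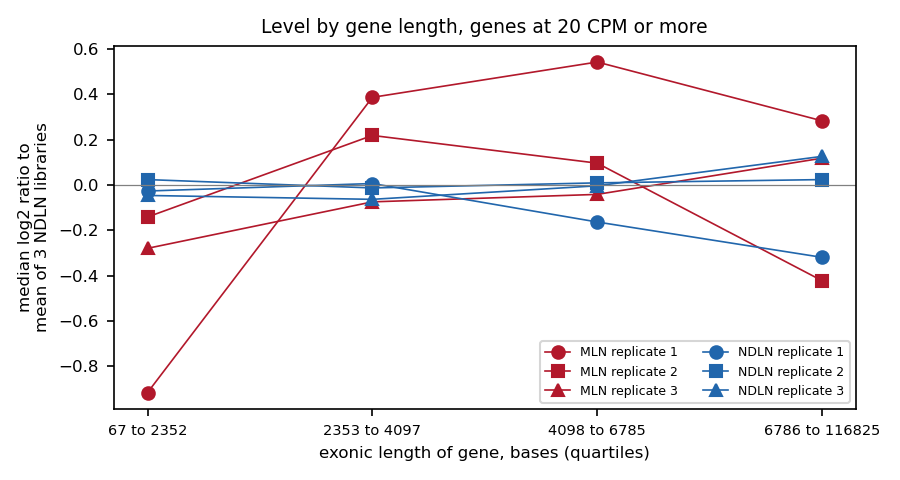
Median log2 ratio of each library to the mean of the 3 NDLN libraries (y axis) by quartile of exonic gene length in bases (x axis), for 6004 genes at 20 CPM or more; red lines are the 3 MLN libraries and blue lines the 3 NDLN libraries. The lowest point is MLN replicate 1 in the shortest quartile, at -0.92.

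Markers of Tregs were present in all 6 libraries. Foxp3 had 128, 49.9 and 95.1 CPM in MLN Tregs, against 39.5, 104 and 75.7 CPM in NDLN Tregs, with overlapping groups (log2 fold change 0.32, SE 0.60, adjusted p = 0.98). Il2ra, the high-affinity interleukin-2 receptor chain, had 159.6, 208 and 242 CPM in MLN Tregs, against 195, 388 and 350.3 CPM in NDLN Tregs. Ctla4, the inhibitory receptor that competes with CD28, had 516, 552 and 656 CPM in MLN Tregs, against 564, 366 and 394 CPM in NDLN Tregs. Cd4 had 58.98, 38.7 and 68.2 CPM in MLN Tregs, against 22.1, 45.6 and 24.5 CPM in NDLN Tregs, and Cd8a, a marker of the other T cell lineage, had 0, 8.75 and 10.4 CPM in MLN Tregs, against 0, 0.464 and 17.9 CPM in NDLN Tregs. Each of these genes had overlapping ranges in the nodes. In NDLN Tconvs Foxp3 was at 0 in all 3 libraries and Il2ra at 5.76 ± 9.97 CPM (SD, n = 3). None of the 5 genes passed the test between nodes (adjusted p from 0.74 to 1, edgeR quasi-likelihood test). In such bulk libraries, fewer cells of a type and less RNA per cell cannot be told apart.

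Of 14996 genes tested, 1 rose in MLN Tregs at an adjusted p under 0.05 (0.00667%) and 0 fell (0%), by edgeR's quasi-likelihood test with Benjamini-Hochberg adjustment. At an unadjusted p under 0.05 there were 842 higher genes (5.61%) and 607 lower genes (4.05%). DESeq2 called 582 higher (3.88%) and 254 lower (1.69%), and limma-voom 32 higher (0.213%) and 9 lower (0.06%), and 26 of the 41 limma-voom calls were among the 836 of DESeq2. The choice of test thus moved the count from 1 to 836. In 1410 genes (9.4%) all 3 MLN libraries lay above all 3 NDLN libraries, and in 1079 (7.2%) all lay below. MLN replicate 3 was the lowest of the MLN libraries in 748 of the 1410 and the highest in 607 of the 1079. It lay at least 2-fold above the NDLN mean in 952 of the 1410, and at most at 0.5 of it in 540 of the 1079. A log2 fold change above 0 was found for 53.9% of genes and below 0 for 43.2%, and the median over all genes was 0.15. With MLN replicate 3 alone against the NDLN libraries, edgeR called 0 genes in either direction, with 217 higher (1.14%) and 178 lower (0.937%) at an unadjusted p under 0.05 of 18998 tested. That comparison shares its NDLN libraries and replicate 3 with the one of 3 against 3, so their values are given side by side and not as independent results.

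The gene that rose was Cdkn1a, which encodes p21, an inhibitor of cyclin-dependent kinases and a classic target of p53 that also responds to other signals. It lies on the plus strand of chromosome 17, chr17:29090976-29100727 in mm10. It is named after its values were seen, as the only call, since its mean lies under the 20 CPM asked of the other genes. The counts were 267, 193 and 96 in MLN Tregs, against 2, 1 and 2 in NDLN Tregs. That is 10.9, 9.76 and 4.36 CPM in MLN Tregs, against 0.0953, 0.0580 and 0.0799 CPM in NDLN Tregs, or 8.36 ± 3.51 CPM in MLN Tregs and 0.0777 ± 0.0187 CPM in NDLN Tregs (SD, n = 3 each). The groups did not overlap, and every MLN library, replicate 3 included, lay above every NDLN library. The ratio of summed counts scaled to library size was 106 (95% exact interval 45.3 to 328, counting error only), and the fitted log2 fold change was 6.64 (SE 0.91, adjusted p = 0.0064). MLN replicate 3 by itself stood at 56.03 times the NDLN mean. The call was not made by limma-voom (adjusted p = 0.09), nor with only the 6 libraries in the fit (0.37), without NDLN replicate 2 (0.15) or 3 (0.15), or for MLN replicate 3 alone (log2 fold change 5.73, adjusted p = 0.56). Cdkn1a had 195 ± 88.1 CPM in heart Tregs and 17.4 ± 11.8 CPM in spleen Tregs (SD, n = 3 each), so MLN Tregs lay between NDLN Tregs and spleen Tregs in mean, with heart Tregs highest.

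The members of a list of p53 targets did not share its pattern as a group. In this list, added after the values of Cdkn1a were seen, 14 were tested, Cdkn1a among them. Of these, 7 had a log2 fold change above 0 and 7 below it, with a median of 0.18. For MLN replicate 3 alone the median was -0.52, and with library set as a term it was -0.18. Cdkn1a alone among them had an unadjusted p under 0.05 in edgeR, as 5.61% of all genes had on the higher side and 4.05% on the lower. DESeq2 called Cdkn1a higher and Phlda3 and Perp lower, where it called 3.88% of all genes higher and 1.69% lower. Phlda3 and Perp each had counts in 1 NDLN library only. Sesn2, a stress-induced sestrin, had 7.34, 0 and 0 CPM in MLN Tregs, against 0, 0.522 and 0 CPM in NDLN Tregs, with all MLN counts in replicate 1. Fas, a death receptor, had 77.8, 90.1 and 132 CPM in MLN Tregs, against 46.4, 58.04 and 65.1 CPM in NDLN Tregs, and Bax, which permeabilises mitochondria, had 19.96, 11.2 and 45.4 CPM in MLN Tregs, against 36.9, 35.6 and 72.5 CPM in NDLN Tregs. Bax overlapped between nodes and Fas did not. Shisa5, described below as induced by p53, is not in the list. It lay higher in every MLN library, as the rule that named it required (log2 fold change 2.18, adjusted p = 0.22 by edgeR). The cell cycle list, which holds the machinery that p21 acts on, had 12 members above 0 and 13 below it of 25. Among them 0 higher and 0 lower had an unadjusted p under 0.05 (5.61% and 4.05% of all genes). The median was -0.09, 0.29 for MLN replicate 3 alone and 0.07 with library set as a term. Without MLN replicate 3 it was -0.68, so its sign changed with the libraries used. Pcna, the replication clamp, had 241, 277 and 302 CPM in MLN Tregs, against 475, 418 and 309 CPM in NDLN Tregs. Mcm2, a subunit of the replicative helicase, had 60.9, 19.6 and 21.4 CPM in MLN Tregs, against 4.57, 11.4 and 14.5 CPM in NDLN Tregs. The pair thus lay in opposite directions, both without overlap and neither past the test.

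**Figure D3:**
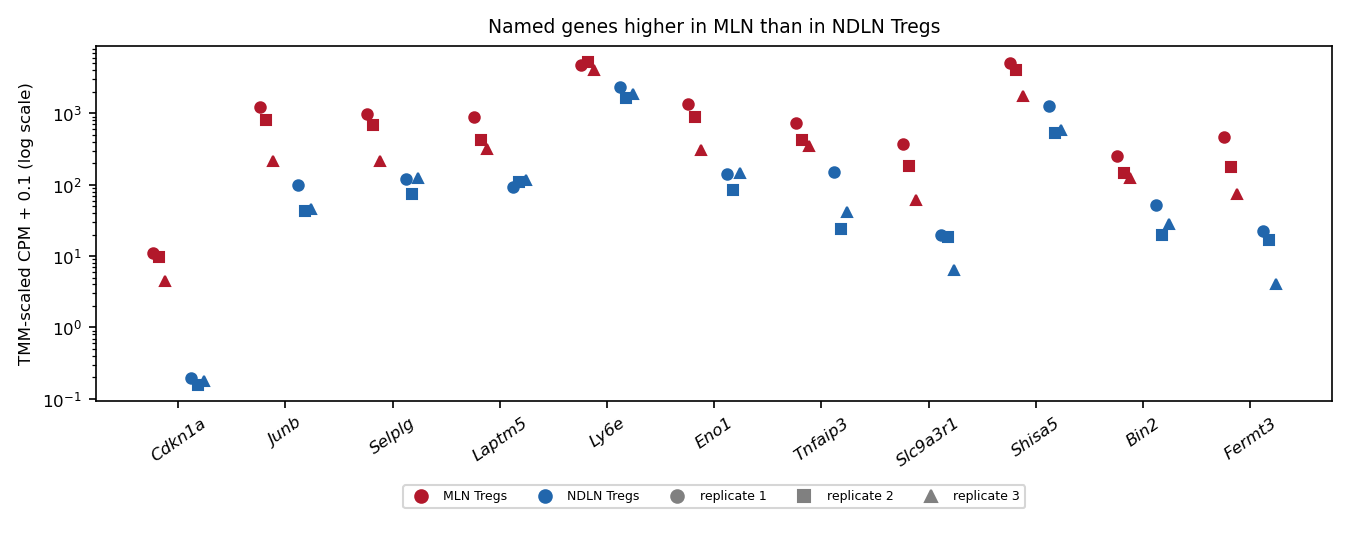
CPM + 0.1 on a log axis in each library, for Cdkn1a and the 10 named genes with higher values in MLN Tregs; MLN libraries are red and left of the blue NDLN libraries, with a symbol per replicate. For the 10 named genes MLN replicate 3 (triangle) is the lowest MLN library and lies above all NDLN libraries, at 216 CPM for Junb, against 42.5 to 98.8 CPM in NDLN Tregs.

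No other gene passed, and the genes below are given as values. They were named by the smallest unadjusted p among genes with at least 20 CPM in the higher node, no overlap between nodes and a replicate 3 at least 2-fold beyond the NDLN mean. The choice fixed the direction in each library and, since it went by p in the same libraries, largely fixed their p in any other fit, so neither is a finding for the 20 of them. With library set as a term, 2.88% of all genes tested were higher and 2.15% lower at an unadjusted p under 0.05. In all 10 with higher values MLN replicate 3 was the lowest MLN library, as in 748 of the 1410 non-overlapping higher genes. In 6 of the 10 with lower values it was the highest, as in 607 of the 1079 non-overlapping lower genes.

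The first of them was Junb, a subunit of the AP-1 transcription factor, with 1229.7, 805 and 216 CPM in MLN Tregs, against 98.8, 42.5 and 45.98 CPM in NDLN Tregs (log2 fold change 3.59, SE 0.63, adjusted p = 0.11). Junb stood at 3.45 times the NDLN mean in MLN replicate 3. Dusp1, an immediate early phosphatase that switches off MAP kinases, had 1458, 1395 and 349.5 CPM in MLN Tregs, against 241, 11.03 and 18.5 CPM in NDLN Tregs (log2 fold change 3.56, SE 0.91, adjusted p = 0.36). NDLN replicate 1 held many times the Dusp1 level of the other NDLN libraries, and still less than any MLN library. Tnfaip3 encodes A20, a ubiquitin-editing enzyme that shuts off NF-kB signalling. Its values were 740.0, 424 and 354 CPM in MLN Tregs, against 150.4, 23.6 and 41.5 CPM in NDLN Tregs (log2 fold change 2.82, SE 0.60, adjusted p = 0.19), with the same NDLN library the highest. Without NDLN replicate 1, edgeR called Dusp1 and Tnfaip3 (adjusted p = 0.0047 and 0.010). The 250 bases before the RefSeq start of these 3 genes are shown because members of their lists shared high values. Capitals mark TGACG, the core of the cyclic AMP response element, and GGG, any 2 bases and TTTCC, an NF-kB type motif, searched on both strands.
Junb, chr8:84978749-84978998, minus strand, GRCm38.p6: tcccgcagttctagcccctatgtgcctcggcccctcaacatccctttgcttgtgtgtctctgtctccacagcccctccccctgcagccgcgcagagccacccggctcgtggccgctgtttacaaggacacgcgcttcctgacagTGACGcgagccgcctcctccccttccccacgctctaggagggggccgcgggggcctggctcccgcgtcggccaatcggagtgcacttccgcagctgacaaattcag
Dusp1, chr17:26508473-26508722, minus strand, GRCm38.p6: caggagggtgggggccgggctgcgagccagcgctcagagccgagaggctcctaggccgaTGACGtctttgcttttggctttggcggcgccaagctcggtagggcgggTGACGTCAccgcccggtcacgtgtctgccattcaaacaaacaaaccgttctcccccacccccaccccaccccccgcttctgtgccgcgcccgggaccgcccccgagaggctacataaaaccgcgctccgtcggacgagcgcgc
Tnfaip3, chr10:19015411-19015660, minus strand, GRCm38.p6: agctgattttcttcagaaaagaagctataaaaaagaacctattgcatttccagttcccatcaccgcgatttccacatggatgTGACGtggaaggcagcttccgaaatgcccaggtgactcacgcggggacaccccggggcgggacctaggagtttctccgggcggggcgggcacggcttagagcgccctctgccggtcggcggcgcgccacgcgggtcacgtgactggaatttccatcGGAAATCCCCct

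The Junb window held TGACG once, 106 bases before the start, and the Dusp1 window held it 3 times, at 191, 143 and 140 bases, where the last pair overlaps on opposite strands within TGACGTCA. The Tnfaip3 window held TGACG at 168 bases and the NF-kB type motif at 12 bases before the start. TGACG was in the windows of 9 of 16 immediate early genes with a window (56.3%) and of 19.8% of all 27025 genes with one. The NF-kB type motif was in 5 of 14 genes of the NF-kB list (35.7%), in 0 of the 16 immediate early genes and in 1.65% of all genes. Such matches describe letters in the window and not a bound site.

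In the immediate early list, of the 22 members tested, 16 had a log2 fold change above 0 and 6 below it. The unadjusted p was under 0.05 for 6 higher and 0 lower members (5.61% and 4.05% of all genes), and 6 higher and 1 lower members did not overlap between nodes (9.4% and 7.2%). No member passed after adjustment, and DESeq2 called 5 higher and 0 lower (3.88% and 1.69% of all genes). Over these members, the median log2 fold change was 1.24, 0.63 for MLN replicate 3 alone and 0.75 with library set as a term, against 0.15, 0.00 and -0.00 over all genes. Fos, the partner of Jun proteins in AP-1, had 479.5, 664 and 493 CPM in MLN Tregs, against 210.1, 13.2 and 19.1 CPM in NDLN Tregs. Btg2, an antiproliferative early response gene, had 169, 138 and 229.6 CPM in MLN Tregs, against 92.4, 41.3 and 64.4 CPM in NDLN Tregs. Klf6, a zinc finger factor, had 209, 430.1 and 317 CPM in MLN Tregs, against 202, 29.3 and 39.4 CPM in NDLN Tregs. In each of the 3 the groups did not overlap, and NDLN replicate 1 was the highest NDLN library. For Klf6 the lowest MLN library, at 209 CPM, was close to NDLN replicate 1 at 202 CPM. Egr3, an early factor downstream of NFAT, had 0, 0 and 0.907 CPM in MLN Tregs, against 11.5, 14.6 and 9.15 CPM in NDLN Tregs, the reverse order. Myc, which drives growth, had 13.2, 35.8 and 56.1 CPM in MLN Tregs, against 138, 55.8 and 17.7 CPM in NDLN Tregs, with overlap.

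Genes of the NF-kB pathway and its feedback lay on the higher side in most members, without a call. Of the 16 members tested, 14 had a log2 fold change above 0 and 2 below it. Members without overlap between nodes were 5 higher and 0 lower (9.4% and 7.2% of all genes), and those with an unadjusted p under 0.05 were 7 higher and 0 lower (5.61% and 4.05%). DESeq2 called 4 higher and 0 lower (3.88% and 1.69% of all genes). The median log2 fold change was 1.61, 0.41 for MLN replicate 3 alone and 1.05 with library set as a term. Relb, a subunit of the alternative NF-kB pathway, had 121, 104 and 17.2 CPM in MLN Tregs, against 14.01, 3.71 and 13.6 CPM in NDLN Tregs. Nfkb1, the precursor of p50, had 151, 53.02 and 68.97 CPM in MLN Tregs, against 21.5, 14.8 and 41.2 CPM in NDLN Tregs. Traf1, an adaptor of TNF receptors, had 216, 133 and 133 CPM in MLN Tregs, against 56.8, 54.96 and 45.9 CPM in NDLN Tregs. For these 3, MLN replicate 3 stood at 1.65, 2.67 and 2.53 times the NDLN mean. It lay above every NDLN library in each, as their lack of overlap requires. Of the 16 members, 5 had MLN replicate 3 above all NDLN libraries and 0 below (26.6% and 17% of all genes tested). Nfkbia, the inhibitor IkB-alpha, had 1319, 2211 and 751 CPM in MLN Tregs, against 947, 422 and 396 CPM in NDLN Tregs, with overlap between the nodes.

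The machinery just below the TCR was also mostly higher in level. Of the 16 members tested, 13 had a log2 fold change above 0 and 3 below it. Unadjusted, 5 higher and 0 lower members had p under 0.05 (5.61% and 4.05% of all genes), and 7 higher and 0 lower ones separated the nodes without overlap (9.4% and 7.2%). None passed after adjustment, and the median log2 fold change was 0.92, 0.64 for MLN replicate 3 alone and 0.73 with library set as a term. Lck, the kinase that phosphorylates the CD3 chains, had 1269.5, 711 and 397 CPM in MLN Tregs, against 242, 239 and 219.6 CPM in NDLN Tregs (log2 fold change 1.76, SE 0.40, adjusted p = 0.25). Zap70, the kinase recruited to phosphorylated CD3 chains, had 30.1, 49.6 and 54.1 CPM in MLN Tregs, against 26.2, 25.02 and 24.2 CPM in NDLN Tregs. Cd3e itself had 286, 213 and 298 CPM in MLN Tregs, against 185, 141 and 126 CPM in NDLN Tregs. MLN replicate 3 was above all NDLN libraries in 10 of the 16, where 26.6% of all genes tested had such a value. Laptm5, a lysosomal protein that lowers surface TCR in T cells, was among the 20 named genes with 879, 424 and 312 CPM in MLN Tregs, against 93.7, 109.8 and 116 CPM in NDLN Tregs (log2 fold change 2.34, SE 0.46, adjusted p = 0.19).

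Adhesion and migration genes followed. Selplg encodes PSGL-1, the ligand of selectins on leukocytes, and had 975, 695 and 215 CPM in MLN Tregs, against 121, 73.4 and 125 CPM in NDLN Tregs (log2 fold change 2.56, SE 0.47, adjusted p = 0.12). Fermt3, kindlin-3, which activates integrins in blood cells, had 469.8, 178 and 73.3 CPM in MLN Tregs, against 22.6, 16.8 and 3.995 CPM in NDLN Tregs (log2 fold change 4.05, SE 0.92, adjusted p = 0.25). Itgb2, the shared beta chain of the leukocyte integrins, had 469, 199.9 and 75.2 CPM in MLN Tregs, against 39.5, 67.6 and 55.9 CPM in NDLN Tregs. In all 3 the nodes did not overlap, and MLN replicate 3 stood at 2.01, 5.06 and 1.38 times the NDLN mean. Without MLN replicate 3, edgeR called Selplg and Junb at an adjusted p of 0.0049 and 0.0051, together with H2-D1, a classical MHC class I heavy chain (0.011), and Eno1 (0.043). That fit sets MLN replicates 1 and 2, of low mitochondrial rRNA share, against NDLN libraries that all have a high one. Node and library set cannot be told apart in it. With library set as a term, Selplg and Junb had log2 fold changes of 1.82 and 2.53 (adjusted p = 0.92 for each, edgeR). For MLN replicate 3 alone these were 1.04 and 1.81.

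The list of chemokine receptors and migration genes does not hold all of Selplg, Fermt3 and Itgb2. Of its 22 members tested, 16 had a log2 fold change above 0 and 6 below it. Among the higher ones 3 had an unadjusted p under 0.05 (5.61% of all genes) and 7 did not overlap between nodes (9.4%), and among the lower ones 0 (4.05%) and 0 (7.2%). Across the list, the median log2 fold change was 0.89, 0.46 for MLN replicate 3 alone and 0.71 with library set as a term. Ccr4, a receptor of skin-homing and activated Tregs, had 87.2, 29.9 and 52.1 CPM in MLN Tregs, against 13.1, 5.28 and 10.4 CPM in NDLN Tregs. Ccr8, a receptor linked to tissue Tregs, had 141, 108 and 76.00 CPM in MLN Tregs, against 56.7, 13.3 and 62.7 CPM in NDLN Tregs. Ccr6, the receptor for CCL20, had 60.8, 12.1 and 15.02 CPM in MLN Tregs, against 6.05, 1.22 and 3.80 CPM in NDLN Tregs. None of these 3 had an unadjusted p under 0.05 in edgeR, so their order rests on the lack of overlap alone. Cxcr5, which guides cells to B cell follicles, had 14.96, 16.8 and 20.5 CPM in MLN Tregs, against 10.6, 0.0580 and 10.7 CPM in NDLN Tregs, and Cxcr4, the receptor for CXCL12, had 4.71, 11.8 and 14.7 CPM in MLN Tregs, against 1.43, 3.54 and 3.40 CPM in NDLN Tregs. Ccr7, which binds the node chemokines CCL19 and CCL21, overlapped between the nodes with 319, 487 and 66.6 CPM in MLN Tregs, against 216, 54.2 and 84.5 CPM in NDLN Tregs, and for MLN replicate 3 alone its log2 fold change was -0.80.

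Interleukin-2 and other cytokine signals reach Tregs through the common gamma chain, JAK kinases and STAT5. In that list, of the 16 members tested, 10 had a log2 fold change above 0 and 6 below it. The unadjusted p was under 0.05 for 3 higher and 0 lower members (5.61% and 4.05% of all genes), and 4 higher and 0 lower members did not overlap between nodes (9.4% and 7.2%). The median log2 fold change was 0.67, 0.36 for MLN replicate 3 alone and 0.42 with library set as a term. Il2rg, the common gamma chain, had 564, 538 and 568 CPM in MLN Tregs, against 446, 346 and 315 CPM in NDLN Tregs. Jak3, the kinase bound to it, had 75.1, 4.50 and 35.2 CPM in MLN Tregs, against 0.810, 1.22 and 3.88 CPM in NDLN Tregs (log2 fold change 4.27, SE 1.48, adjusted p = 0.48). Stat5b had 73.6, 13.1 and 34.6 CPM in MLN Tregs, against 7.10, 10.6 and 11.2 CPM in NDLN Tregs, and Il4ra, the interleukin-4 receptor chain, had 129.9, 41.9 and 25.5 CPM in MLN Tregs, against 7.53, 6.09 and 6.71 CPM in NDLN Tregs. These 4 did not overlap between nodes, and DESeq2 called Jak3, Stat5b and Il4ra. Its calls in the list were 3 higher and 0 lower (3.88% and 1.69% of all genes). Tnfrsf9, a costimulatory receptor of activated Tregs also known as 4-1BB, is not in this list. It had 1011, 663 and 360.3 CPM in MLN Tregs, against 224, 287 and 220.0 CPM in NDLN Tregs.

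In the interferon response list, of the 22 members tested, 18 had a log2 fold change above 0 and 4 below it. Members without overlap between nodes were 5 higher and 0 lower (9.4% and 7.2% of all genes), and those with an unadjusted p under 0.05 were 4 higher and 0 lower (5.61% and 4.05%). Over these members, the median log2 fold change was 0.62, 0.32 for MLN replicate 3 alone and 0.80 with library set as a term. Irf1 had 334, 147 and 101 CPM in MLN Tregs, against 30.9, 38.6 and 48.3 CPM in NDLN Tregs (log2 fold change 2.31, SE 0.53, adjusted p = 0.25), and Irf7, the master factor of type I interferon induction, had 123, 117 and 52.5 CPM in MLN Tregs, against 12.96, 2.79 and 15.3 CPM in NDLN Tregs. Ly6e, an interferon-inducible surface protein on many lymphocytes, had 4726, 5306 and 4076 CPM in MLN Tregs, against 2349, 1664 and 1883 CPM in NDLN Tregs (log2 fold change 1.26, SE 0.26, adjusted p = 0.19). Ly6e is among the named genes with higher values and is not in the interferon list. Rsad2, the antiviral enzyme viperin, held 730 counts over the MLN libraries and 1 over the NDLN libraries, a ratio of 697 (95% exact interval 125 to 27584, counting error only). Stat3, listed with the helper lineage factors, had 151, 76.3 and 49.7 CPM in MLN Tregs, against 7.96, 23.7 and 32.2 CPM in NDLN Tregs.

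Glycolysis converts glucose to pyruvate and lactate, and activated T cells raise it. In the glycolysis and hypoxia list, of the 19 members tested, 14 had a log2 fold change above 0 and 5 below it. Unadjusted, 8 higher and 0 lower members had p under 0.05 (5.61% and 4.05% of all genes), and 8 higher and 1 lower ones separated the nodes without overlap (9.4% and 7.2%). Across the list, the median log2 fold change was 1.37, 0.95 for MLN replicate 3 alone and 0.79 with library set as a term. Eno1, enolase, had 1373, 901 and 307 CPM in MLN Tregs, against 143, 83.2 and 145 CPM in NDLN Tregs (log2 fold change 2.80, SE 0.58, adjusted p = 0.19). Pkm, pyruvate kinase, had 358, 264 and 138 CPM in MLN Tregs, against 76.4, 47.3 and 53.8 CPM in NDLN Tregs. Gapdh had 132, 179 and 8.89 CPM in MLN Tregs, against 7.34, 0 and 0.400 CPM in NDLN Tregs, with MLN replicate 3 at 3.45 times the NDLN mean. In these 3 all MLN libraries exceeded all NDLN libraries, and DESeq2 called each. Its calls in the list were 3 higher and 0 lower (3.88% and 1.69% of all genes). Slc2a1, the glucose transporter GLUT1, had 7.58, 19.6 and 12.6 CPM in MLN Tregs, against 3.86, 4.93 and 2.36 CPM in NDLN Tregs. Ldha, lactate dehydrogenase A, had 2139, 1684 and 502 CPM in MLN Tregs, against 883, 576 and 593 CPM in NDLN Tregs, and in MLN replicate 3 alone its log2 fold change was -0.42, the opposite of the comparison of 3 against 3. Several of these enzymes have processed copies in the genome, and how reads were shared among copies is not given in the sources used here.

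**Figure D4:**
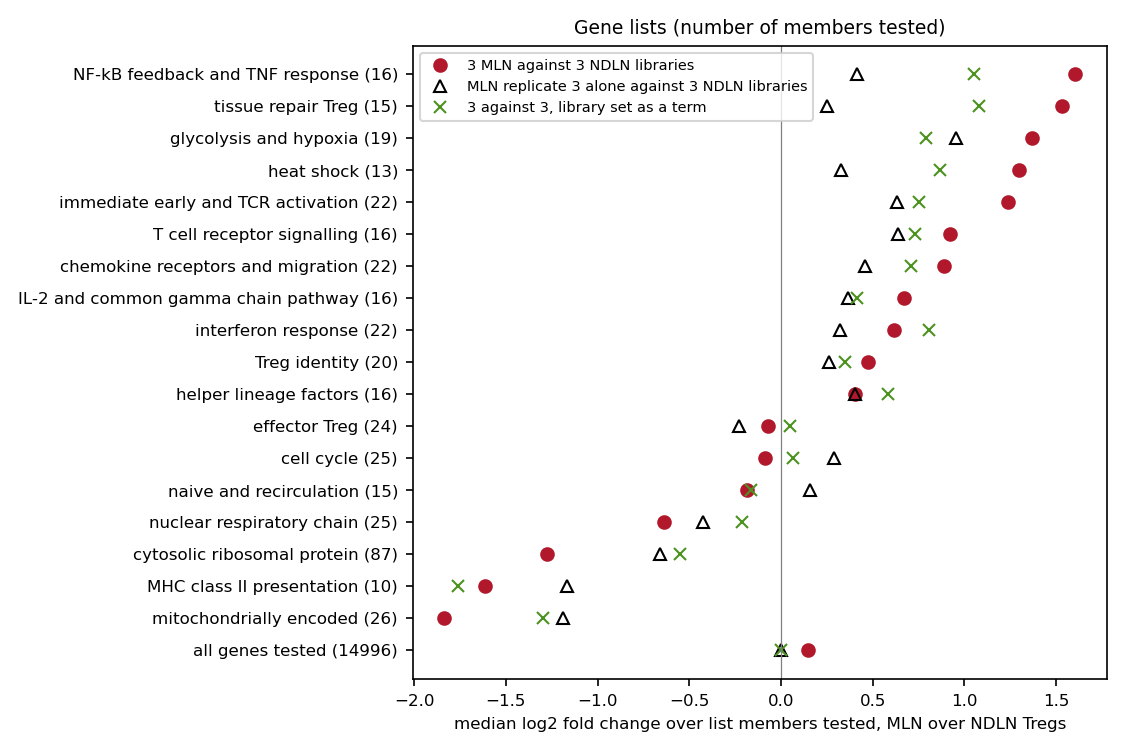
Median log2 fold change (x axis, MLN over NDLN Tregs) over the tested members of each gene list (y axis, number tested in brackets): filled circles are 3 against 3 libraries, triangles MLN replicate 3 alone, crosses the fit with library set as a term. The NF-kB list has 1.61, 0.41 and 1.05 and the mitochondrially encoded list -1.84, -1.19 and -1.30, beside 0.15, 0.00 and -0.00 over all genes.

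Chaperones fold proteins in the cytosol, the endoplasmic reticulum (ER) and mitochondria. In the heat shock list, of the 13 members tested, 8 had a log2 fold change above 0 and 5 below it. Among the higher ones 4 had an unadjusted p under 0.05 (5.61% of all genes) and 4 did not overlap between nodes (9.4%), and among the lower ones 1 (4.05%) and 1 (7.2%). Across the list, the median log2 fold change was 1.30, 0.33 for MLN replicate 3 alone and 0.87 with library set as a term, and 0.26 without MLN replicate 3. Hspa8, the constitutive cytosolic HSP70, had 2484, 1772 and 809 CPM in MLN Tregs, against 760.4, 678 and 385 CPM in NDLN Tregs, and Hsp90ab1 had 967, 619.6 and 419.6 CPM in MLN Tregs, against 379.9, 285 and 149.9 CPM in NDLN Tregs. Hsp90b1, the ER chaperone gp96 that folds integrins and Toll-like receptors, had 105, 62.7 and 80.5 CPM in MLN Tregs, against 296, 337 and 394 CPM in NDLN Tregs (log2 fold change -2.05, SE 0.47, adjusted p = 0.25). Hsp90b1 is among the named genes with lower values and is not in the heat shock list. Hspe1, the mitochondrial HSP10, had 82.9, 214 and 361 CPM in MLN Tregs, against 604, 523 and 477 CPM in NDLN Tregs. These 4 did not overlap between the nodes, with the cytosolic pair higher and the ER and mitochondrial ones lower in MLN Tregs. Hspa5, the ER chaperone BiP, had 721, 459 and 200.3 CPM in MLN Tregs, against 248, 184 and 128 CPM in NDLN Tregs, so the ER chaperones did not share a direction. Bag3, a co-chaperone induced by stress, had 134 counts over the MLN libraries and 0 over the NDLN libraries, which is at least 42.7-fold higher against a floor of 3 counts over the group, with 1.93, 1.77 and 2.36 CPM in MLN Tregs, against 0, 0 and 0 CPM in NDLN Tregs.

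Among the 10 named genes with lower values, mitochondrially encoded genes took 4 places. mt-Nd6, mt-Nd2 and mt-Nd3, subunits of complex I, had log2 fold changes of -1.83, -1.56 and -2.93. mt-Cytb, of complex III, had 2467, 4049 and 8258 CPM in MLN Tregs, against 14581, 19044 and 18149.5 CPM in NDLN Tregs (log2 fold change -1.81, SE 0.47, adjusted p = 0.36). In that class, of the 26 members tested, 1 had a log2 fold change above 0 and 25 below it. The unadjusted p was under 0.05 for 0 higher and 13 lower members (5.61% and 4.05% of all genes), and 0 higher and 19 lower members did not overlap between nodes (9.4% and 7.2%). The median log2 fold change was -1.84, -1.19 for MLN replicate 3 alone and -1.30 with library set as a term. Cytosolic ribosomal protein genes lay the same way, and of the 87 members tested, 4 had a log2 fold change above 0 and 83 below it. Members without overlap between nodes were 0 higher and 69 lower (9.4% and 7.2% of all genes), and those with an unadjusted p under 0.05 were 2 higher and 64 lower (5.61% and 4.05%). Over these members, the median log2 fold change was -1.28, -0.66 for MLN replicate 3 alone and -0.55 with library set as a term. These are the gene classes whose shares mark the library sets above, and MLN replicate 3 lay nearer to the NDLN libraries than MLN replicates 1 and 2 did in both.

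Nuclear genes of the respiratory chain lay mostly on the lower side. In that list, of the 25 members tested, 6 had a log2 fold change above 0 and 19 below it. Unadjusted, 4 higher and 8 lower members had p under 0.05 (5.61% and 4.05% of all genes), and 2 higher and 4 lower ones separated the nodes without overlap (9.4% and 7.2%). Its median log2 fold change was -0.64, -0.43 for MLN replicate 3 alone and -0.21 with library set as a term. Ndufb8 of complex I had 71.1, 139.8 and 169 CPM in MLN Tregs, against 327, 347 and 369.7 CPM in NDLN Tregs, and Cox7c of complex IV had 145, 418 and 326 CPM in MLN Tregs, against 469, 663 and 718 CPM in NDLN Tregs. Ndufv1, the flavoprotein of complex I, had 178, 124 and 54.3 CPM in MLN Tregs, against 20.2, 26.2 and 17.9 CPM in NDLN Tregs, and Uqcrc2, a core protein of complex III, had 175, 237 and 138 CPM in MLN Tregs, against 23.3, 58.7 and 48.9 CPM in NDLN Tregs. The first pair was lower and the second higher in all MLN libraries. Uqcc2, an assembly factor of complex III, is among the named genes with lower values and is not in this list. It had 29.8, 70.2 and 56.3 CPM in MLN Tregs, against 138, 191 and 197 CPM in NDLN Tregs (log2 fold change -1.75, SE 0.43, adjusted p = 0.36). Ndufs3, another complex I subunit, was at 0, 0 and 223 CPM in MLN Tregs, against 141, 189 and 159 CPM in NDLN Tregs. Its 0 counts in MLN replicates 1 and 2 were not shared by replicate 3, and Celf1, an RNA-binding protein gene, behaved likewise with 0, 0 and 16.9 CPM in MLN Tregs, against 21.9, 22.8 and 31.2 CPM in NDLN Tregs. In all, 40 genes had at most 0.5 CPM in MLN replicates 1 and 2 and at least 5 CPM in the other 4 libraries, and 74 the converse. Epha7, an ephrin receptor, was of the second kind with 6.89, 16.3 and 0 CPM in MLN Tregs, against 0, 0 and 0 CPM in NDLN Tregs.

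**Figure D5:**
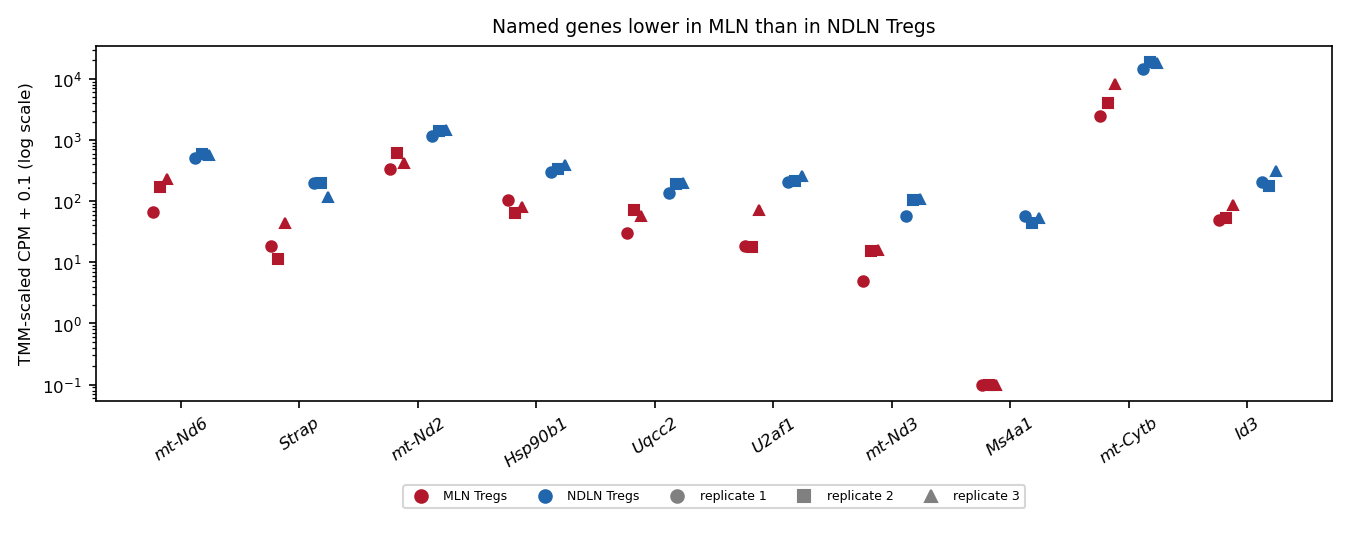
CPM + 0.1 on a log axis in each library for the 10 named genes with lower values in MLN Tregs; MLN libraries are red and left of the blue NDLN libraries, with a symbol per replicate. Ms4a1 is at 0 in all MLN libraries and at 44.3 to 57.4 CPM in NDLN Tregs, and Hsp90b1 is at 62.7 to 105 CPM in MLN Tregs, against 296 to 394 CPM in NDLN Tregs.

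Further named genes with lower values were Strap, U2af1 and Id3. Strap, an adaptor with WD40 repeats that inhibits TGF-beta signalling and binds RNA-processing complexes, had 18.4, 11.1 and 44.3 CPM in MLN Tregs, against 200.2, 200.1 and 117 CPM in NDLN Tregs (log2 fold change -2.81, SE 0.59, adjusted p = 0.19). U2af1, the small subunit of the factor that recognises 3′ splice sites, had 18.3, 17.6 and 70.2 CPM in MLN Tregs, against 203, 210.5 and 261 CPM in NDLN Tregs (log2 fold change -2.67, SE 0.67, adjusted p = 0.36). Id3, an inhibitor of E proteins that helps maintain Tregs, had 49.7, 52.9 and 85.6 CPM in MLN Tregs, against 205, 174 and 316 CPM in NDLN Tregs (log2 fold change -1.88, SE 0.49, adjusted p = 0.36). Across the 3, MLN replicate 3 stood at 0.257, 0.312 and 0.370 times the NDLN mean. The remaining named genes with higher values were Shisa5, an ER protein induced by p53, Slc9a3r1, a scaffold that links membrane proteins to ezrin, and Bin2, a membrane-curving protein of leukocytes. Their log2 fold changes were 2.18, 3.80 and 2.40, with MLN replicate 3 at 2.18, 4.14 and 3.75 times the NDLN mean.

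Genes of Treg identity lay in both directions. In their list, of the 20 members tested, 13 had a log2 fold change above 0 and 7 below it. Among the higher ones 2 had an unadjusted p under 0.05 (5.61% of all genes) and 5 did not overlap between nodes (9.4%), and among the lower ones 2 (4.05%) and 2 (7.2%). Across the list, the median log2 fold change was 0.47, 0.26 for MLN replicate 3 alone and 0.35 with library set as a term. Ikzf2 encodes Helios, a factor of thymus-derived Tregs, and had 391, 336 and 762 CPM in MLN Tregs, against 991, 1452 and 2032 CPM in NDLN Tregs (log2 fold change -1.59, SE 0.46, adjusted p = 0.38), lower in every MLN library. Izumo1r, folate receptor 4 on Tregs, had 1521, 1912 and 1289.7 CPM in MLN Tregs, against 799, 416 and 280.3 CPM in NDLN Tregs, and Nrp1, neuropilin-1, had 118, 55.2 and 105 CPM in MLN Tregs, against 52.4, 54.7 and 46.8 CPM in NDLN Tregs. Gpr83, a receptor enriched in Tregs, had 238, 108 and 80.8 CPM in MLN Tregs, against 64.1, 54.8 and 50.1 CPM in NDLN Tregs. These 3 were higher in every MLN library and did not pass the test, and Nrp1 in MLN replicate 2 exceeded NDLN replicate 2 by less than 1 CPM. Helios and neuropilin-1, which are both used as marks of thymic origin, thus lay in opposite directions. Ikzf2 had 558 ± 228 CPM in heart Tregs and 1111 ± 412 CPM in spleen Tregs (SD, n = 3 each).

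The effector Treg and naive lists had members on both sides. In the effector list, of the 24 members tested, 11 had a log2 fold change above 0 and 13 below it. The unadjusted p was under 0.05 for 0 higher and 1 lower members (5.61% and 4.05% of all genes), and 1 higher and 6 lower members did not overlap between nodes (9.4% and 7.2%). Maf, a factor that drives interleukin-10, had 74.3, 106 and 139.6 CPM in MLN Tregs, against 203, 193 and 223 CPM in NDLN Tregs. Icos, a costimulator of effector Tregs, had 223, 162 and 904 CPM in MLN Tregs, against 961, 1546 and 1207 CPM in NDLN Tregs. Irf4, which is required for effector differentiation, had 14.6, 13.5 and 10.8 CPM in MLN Tregs, against 17.8, 23.1 and 14.9 CPM in NDLN Tregs. Lgals1, galectin-1, had 914, 1861 and 1875 CPM in MLN Tregs, against 2018, 2619.6 and 2551 CPM in NDLN Tregs, also lower in every MLN library. Among naive genes, Tcf7, encoding TCF-1, had 128, 63.5 and 45.4 CPM in MLN Tregs, against 23.1, 17.99 and 29.4 CPM in NDLN Tregs and was higher without overlap. Bach2, which restrains effector programmes, had 0.451, 10.3 and 8.03 CPM in MLN Tregs, against 10.5, 13.3 and 44.8 CPM in NDLN Tregs, and Foxo1, which drives homing genes, had 56.4, 58.99 and 71.5 CPM in MLN Tregs, against 80.9, 93.6 and 94.1 CPM in NDLN Tregs, both lower. The naive list had a median log2 fold change of -0.19 (0.16 for MLN replicate 3 alone) and the effector list of -0.07 (-0.23), and no member of either passed. The list of tissue repair genes had 11 members above 0 and 4 below it of 15. At an unadjusted p under 0.05 there were 2 higher and 0 lower members (5.61% and 4.05% of all genes). The median of this list, 1.53, was 0.25 for MLN replicate 3 alone. Tgfb1, the cytokine TGF-beta 1, had 0.697, 6.17 and 1.996 CPM in MLN Tregs, against 0.0953, 0.116 and 0.0799 CPM in NDLN Tregs. Helper lineage factors had 12 members above 0 and 2 below it of 16, with a median of 0.40. Of these, 2 higher and 0 lower had an unadjusted p under 0.05 (5.61% and 4.05% of all genes).

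Transcripts of B cells, which the sort should remove, were lower in sum in every MLN library than in any NDLN library. The B cell list summed to 122, 135 and 107 CPM in MLN Tregs, against 445, 324 and 424 CPM in NDLN Tregs. Of the 10 members tested, 2 had a log2 fold change above 0 and 8 below it. Members without overlap between nodes were 0 higher and 6 lower (9.4% and 7.2% of all genes), and those with an unadjusted p under 0.05 were 0 higher and 3 lower (5.61% and 4.05%). The median log2 fold change was -2.87, -4.93 for MLN replicate 3 alone and -3.02 with library set as a term. Fcmr, an IgM receptor, and Cd22, an inhibitory receptor, were the higher pair, with overlap. Ms4a1 and Ebf1 were at 0 in all MLN libraries, and Pax5 and Cr2 in all 6 libraries. Ms4a1, which encodes CD20, had 0, 0 and 0 CPM in MLN Tregs, against 57.4, 44.3 and 51.9 CPM in NDLN Tregs. Its 0 counts, against 3267 over the NDLN libraries, put it at least 1140-fold lower against a floor of 3 counts over the group. Its adjusted p was 0.36 by edgeR, 0.00016 by limma-voom and 7.3e-06 by DESeq2. Cd79a, a signalling chain of the B cell receptor, had 2.46, 11.7 and 0.272 CPM in MLN Tregs, against 119, 90.4 and 72.5 CPM in NDLN Tregs, and Cd79b, its partner, had 30.7, 74.2 and 29.04 CPM in MLN Tregs, against 119, 139 and 169 CPM in NDLN Tregs. MHC class II genes, which mouse T cells express little, had 9 of 10 members below 0, with a median log2 fold change of -1.62 and of -1.17 for MLN replicate 3 alone. H2-Aa had 7.71, 7.18 and 3.22 CPM in MLN Tregs, against 189, 126 and 96.4 CPM in NDLN Tregs (log2 fold change -4.50, SE 1.25, adjusted p = 0.38), and H2-Ab1 had 0, 6.12 and 9.48 CPM in MLN Tregs, against 15.6, 68.2 and 18.98 CPM in NDLN Tregs. MLN replicate 3 was as low as the other MLN libraries for Ms4a1. It was the lowest MLN library for Cd79a, Cd79b and H2-Aa, but the highest for H2-Ab1. Its place among the MLN libraries thus differed by gene.

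Plasma cell and immunoglobulin transcripts split the NDLN libraries. The plasma cell list summed to 214, 195 and 276 CPM in MLN Tregs, against 170.3, 4003 and 3589 CPM in NDLN Tregs, and immunoglobulin genes to 4925, 3732 and 2309 CPM in MLN Tregs, against 2595, 20556 and 20571 CPM in NDLN Tregs. NDLN replicate 1, with the least of both in its node, was also the NDLN library with the highest Dusp1, Fos and Tnfaip3. The part of these cells in the comparisons was not tested.

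Erythroid transcripts went the other way. Haemoglobin genes summed to 336, 477 and 29903 CPM in MLN Tregs, against 14.2, 0.505 and 1.43 CPM in NDLN Tregs. Hbb-bt, a beta-globin chain, had 18.5, 40.3 and 5734 CPM in MLN Tregs, against 0.191, 0.174 and 0.240 CPM in NDLN Tregs, and Hbb-bs, its near-identical neighbour with which reads may be shared, had 105, 165 and 8628 CPM in MLN Tregs, against 0.905, 0.232 and 0.240 CPM in NDLN Tregs. All MLN libraries exceeded all NDLN libraries, and MLN replicate 3 exceeded the other MLN libraries many times over. In the main comparison their adjusted p was 0.36 and 0.25. With library set as a term edgeR called both (adjusted p = 0.00069 and 0.0079), with Cdkn1a as the remaining call (0.012). Leaving haemoglobin genes out of the counts, an alternative added after the data were seen, kept Cdkn1a as the single call (adjusted p = 0.0064). The part of blood in these libraries was not tested.

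Sums over the markers of several other cell types overlapped between the nodes. CD8 T and natural killer cell genes summed to 221, 762 and 282 CPM in MLN Tregs, against 494, 330.0 and 259 CPM in NDLN Tregs. Macrophage and monocyte genes summed to 19.9, 43.7 and 58.99 CPM in MLN Tregs, against 25.9, 111 and 256 CPM in NDLN Tregs, with 6 of 12 members at 0 in all MLN libraries and 7 of 12 in all NDLN libraries. C1qc, a complement component of macrophages, had 4.10, 3.64 and 3.86 CPM in MLN Tregs, against 0, 0 and 0 CPM in NDLN Tregs. Dendritic cell genes summed to 16.8, 60.7 and 85.7 CPM in MLN Tregs, against 69.5, 20.4 and 59.3 CPM in NDLN Tregs, endothelial genes to 41.5, 29.5 and 101 CPM in MLN Tregs, against 23.3, 32.8 and 73.9 CPM in NDLN Tregs, and stromal genes to 0.719, 0.234 and 5.26 CPM in MLN Tregs, against 16.3, 0.657 and 0.107 CPM in NDLN Tregs. In these 5 lists no order of the nodes held in every library. Neutrophil genes summed to 23.9, 30.5 and 31.05 CPM in MLN Tregs, against 15.4, 0.707 and 0.285 CPM in NDLN Tregs, and platelet genes to 22.2, 1.75 and 0.0492 CPM in MLN Tregs, against 0, 0 and 0 CPM in NDLN Tregs. Cardiomyocyte genes summed to 2.43, 0.0584 and 6.05 CPM in MLN Tregs, against 0, 0 and 0 CPM in NDLN Tregs, with 6 of 8 members at 0 in all MLN libraries and all 8 in NDLN libraries, among them the myosin heavy chains Myh6 and Myh7. The last 3 lists were above the NDLN libraries in every MLN library, at levels resting on few genes. In the CD8 and natural killer list 6 members had a log2 fold change above 0 and 5 below it, of 11 tested. Klrd1, the natural killer receptor CD94, was at 0, 0 and 0 CPM in MLN Tregs, against 5.10, 21.4 and 16.3 CPM in NDLN Tregs. Klrk1, the activating receptor NKG2D, was at 0, 0 and 8.35 CPM in MLN Tregs, against 0.0476, 0.0580 and 0.0799 CPM in NDLN Tregs, and Prf1, perforin, at 0, 18.01 and 0 CPM in MLN Tregs, against 0, 0 and 0.200 CPM in NDLN Tregs. The higher values of Klrk1 and Prf1 each came from 1 MLN library.

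Heart and spleen Tregs give these levels a scale, as a description. Heart Treg replicate 1 has a low mitochondrial rRNA share (0.0915%, against 4.15% and 3.99% in replicates 2 and 3), and no spleen Treg library has. The heart means thus mix the library sets. Junb had 886 ± 359.5 CPM in heart Tregs and 109 ± 45.1 CPM in spleen Tregs (SD, n = 3 each), and Dusp1 had 503 ± 87.7 CPM in heart Tregs and 253 ± 149 CPM in spleen Tregs (SD, n = 3 each). Tnfaip3 had 665 ± 195 CPM in heart Tregs and 174 ± 63.3 CPM in spleen Tregs (SD, n = 3 each). Ms4a1 was at 0 in all heart Treg libraries and had 52.8 ± 8.25 CPM in spleen Tregs (SD, n = 3). The mean of MLN Tregs was 749.9 ± 509 CPM for Junb, 1067 ± 623 CPM for Dusp1 and 506 ± 206 CPM for Tnfaip3 (SD, n = 3). Of Cdkn1a and the 20 named genes, 8 of 21 overlap another annotated gene, and the strand setting of the counting is not given in the sources used here, so their reads may include those of the neighbour. Nfkbia, Cxcr4, Cxcr5, Rsad2, Slc2a1, Ldha, Hspa5, Irf4, Phlda3, Perp, Sesn2, Fcmr, Cd22, C1qc, Klrd1, Klrk1 and Prf1 were named from their lists after their values were seen.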

How the data were processed

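RNA of Tregs and Tconvs, sorted by magnetic and fluorescence-activated sorting, was made into libraries with a SMARTer ultra-low-input kit, per the labels' protocols. The authors deposited raw read counts per gene for 21 libraries. Per the submitters' processing notes the steps involved CASAVA 1.8.2, HISAT2, HTSeq 0.6.0 and mm10; these notes give no annotation, strand setting or treatment of multi-mapping reads. Counts were read by column name through the labels, and 0 columns were left unused. Of 49510 gene rows, 26 symbols turned into dates were restored from their gene IDs with GENCODE, which held 49412 of the IDs.

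The comparison was fitted with edgeR 4.0.16 (R 4.3.3), a robust quasi-likelihood fit over all 21 libraries in 7 groups, with TMM factors, its default filter by group (a count of 10, total 15) and Benjamini-Hochberg adjustment over 14996 genes, called at an adjusted p under 0.05. The common dispersion was 2.19. DESeq2 1.42.0, limma-voom (limma 3.58.1), other scalings and filters, each library left out, MLN replicate 3 alone, the library set as a term (mitochondrial rRNA share above or below 0.5%) and a replicate block were alternatives. The fits were also run on simulated counts, whose outcome is not given here, so nothing about the fit is drawn from them. CPM of single genes are counts per 1000000 of TMM-scaled library size. Sums over marker lists, immunoglobulin genes and haemoglobin genes are per 1000000 total counts, without TMM scaling. Exact intervals and the floor of 3 counts cover counting error only.

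Named genes were those called, then, to 10 in each direction, genes of at least 20 CPM in the higher group without overlap and with MLN replicate 3 at least 2-fold beyond the NDLN mean, by unadjusted p. Predicted, ribosomal protein and receptor segment genes were left out of this choice. From each list, up to 2 members higher and 2 lower by unadjusted p, and members of 20 CPM or more without overlap, could be named, and 17 genes were always included. The members and the 27 lists were chosen with earlier results of these data known. The p53 target list and the alternative without haemoglobin genes were added after the data were seen. Promoters are RefSeq's, GRCm38.p6. Some listed genes are not reported here.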

Additional observations from a re-analysis of the deposited data

How the results depend on the processing

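The count of genes called higher, 1 by edgeR over all libraries, was 582 by DESeq2, 32 by limma-voom and 84 with no filter on low counts. It was 3 with library set as a term, 0 for MLN replicate 3 alone and 0 with only the 6 libraries compared. The count of genes called lower, 0 in the main comparison with 607 at an unadjusted p under 0.05, was 254 by DESeq2, 9 by limma-voom and 109 with no filter. The cause of these moves was not tested. Leaving out each library gave 0 to 5 genes higher and 0 to 0 lower. Without MLN replicate 3 the 5 were Cdkn1a, Selplg, Junb, H2-D1 and Eno1, in a fit where node and library set cannot be told apart. Without NDLN replicate 1 they were Tbp, Dusp1, Tnfaip3, Rgs2 and Cdkn1a, and without NDLN replicate 2 or 3 there were 0.

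The labels do not say whether equal replicate numbers pair the libraries. Deviations from the node means correlated at -0.0079, -0.022 and 0.022 for numbers 1, 2 and 3, and not every library correlated best with its own number. Since the MLN libraries also differed in composition, these values cannot decide whether equal numbers shared a source. With a replicate block over 21 libraries 4 genes were called higher (Cdkn1a, Junb, Shisa5 and Tnfaip3), and with a block over the 6 libraries 0.

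The median log2 fold change over all genes, 0.15 with TMM, was 0.28 with RLE factors or DESeq2, 0.24 with limma-voom and 0.00 with upper-quartile factors, so a single value within about that range has no fixed sign. Signs turned for Ccr7 (-0.80 for MLN replicate 3 alone), Ldha (-0.42, likewise), Ndufs3 (0.48 likewise, 0.42 with library set as a term), Epha7 (-0.56 with the set term) and Foxp3 (-0.025 with the set term, -0.016 without MLN replicate 1, and -0.016 to 0.66 over the left-out libraries). Cd8a turned to -0.15 with the set term, -0.37 with the block over 21 libraries, and ran from -0.52 to 4.75 over the left-out libraries. Cdkn1a had 5 counts over the NDLN libraries, and hence a wide interval for its ratio.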
